A study of Mus musculus with 4 samples.

Results

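Folr1, Mthfd2, Shmt1 and Mtr are genes of folate uptake and one-carbon metabolism, and each was named by 1 region of a table of H3K27ac differences in mouse embryonic stem cells (mESCs). The 4 genes were taken by symbol, and they account for 4 of the 4088 peaks and 4 of the 3467 gene symbols in the table. H3K27ac is an acetyl mark on histone H3 that is carried by active promoters and enhancers. It was profiled by chromatin immunoprecipitation sequencing (ChIP-seq) in the Sv129 line, grown in folate-deficiency medium (0 mg/L, FA0) or in control medium (4 mg/L, FA4). Both media contained fetal bovine serum, and all cells came from 1 line. Each condition had 1 immunoprecipitated (IP) library and 1 input library, so the FA0 and FA4 values of a peak are those of single libraries and carry no p-value.

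Every row of the table is a place where FA0 had the lower H3K27ac signal and FA4 the higher one. The table itself does not name its control. The order was read from the study's own name for these promoter peaks, and every difference turns round if that reading is wrong. The paper describes slightly raised H3K27ac at its target genes under folate deficiency, the opposite of the direction read here. Which reading is right was not tested. Places higher in FA0 were not analysed here. In each row, the pileup is the number of FA4 fragments stacked at the summit, the fold is FA4 pileup over FA0 local background, and the FA0 local background was recovered from both. The number of reads per library was not analysed here. The depth behind a value is its pileup, and pileups lay between 8 and 265. Intervals cover counting error only. Of 10 pluripotency markers, 7 had a promoter peak, among them Pou5f1, Nanog and Sox2, against 0 of 10 fibroblast markers, 0 of 10 mesoderm and endoderm markers and 1 of 10 trophoblast markers (Tfap2c), beside 4.75% of all protein-coding genes. A row is a difference between FA0 and FA4, so a marker without one is not shown to be inactive.

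Folate enters cells through the folate receptors and carriers and is kept there as polyglutamates. In the cytosol and the mitochondria, enzymes load it with one-carbon units, mainly from serine, and hand these units to the synthesis of purines and thymidylate. Through methionine synthase the units also reach methionine and S-adenosylmethionine, the methyl donor for DNA and histone methylation. Folr1 encodes folate receptor alpha, which binds folate at the cell surface and is needed for neural tube closure in the mouse. Mthfd2 encodes a mitochondrial dehydrogenase and cyclohydrolase that is strongly expressed in embryonic and proliferating cells. Shmt1 encodes the cytosolic serine hydroxymethyltransferase, and Mtr encodes methionine synthase.

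All 4 peaks were classed as promoter peaks, yet of the 3 genes with a single RefSeq start to measure from, 1 (Mthfd2) had its summit within 1 kb of that start. The promoter sequences are shown to give the starts from which these distances were measured, beside the peak in Mthfd2 and far from it in Shmt1 and Mtr. Each run is the 250 bases before the RefSeq start (build GRCm38.p6, the assembly behind mm10), all on the minus strand and written 5′ to 3′. Capitals mark the CCAAT box (CCAAT or, on the other strand, ATTGG) and the GC box (GGGCGG or, on the other strand, CCGCCC). The Mthfd2 window lies at chr6:83317605-83317854, the Shmt1 window at chr11:60811266-60811515 and the Mtr window at chr13:12258114-12258363. RefSeq sequences were matched for 3 of the 4 genes, and Folr1 is named only.
Mthfd2: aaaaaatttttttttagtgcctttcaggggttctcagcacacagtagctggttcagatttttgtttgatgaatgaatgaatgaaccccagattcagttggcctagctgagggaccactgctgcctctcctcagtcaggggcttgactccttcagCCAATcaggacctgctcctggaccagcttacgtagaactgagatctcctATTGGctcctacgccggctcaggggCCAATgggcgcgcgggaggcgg
Shmt1: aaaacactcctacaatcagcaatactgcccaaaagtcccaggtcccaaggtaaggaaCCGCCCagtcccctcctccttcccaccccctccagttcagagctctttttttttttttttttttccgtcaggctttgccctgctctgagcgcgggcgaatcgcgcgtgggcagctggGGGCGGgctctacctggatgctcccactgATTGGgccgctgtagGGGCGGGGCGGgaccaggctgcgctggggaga
Mtr: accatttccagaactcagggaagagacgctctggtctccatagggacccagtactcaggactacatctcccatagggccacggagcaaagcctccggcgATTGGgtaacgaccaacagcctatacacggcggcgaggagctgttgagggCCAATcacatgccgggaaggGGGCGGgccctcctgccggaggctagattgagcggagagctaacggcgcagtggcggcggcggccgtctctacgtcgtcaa

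The Mthfd2 window held 3 CCAAT boxes, beginning 96, 47 and 22 bases before the start, and no GC box. The Shmt1 window held 1 CCAAT box, 47 bases before the start, and 4 GC boxes, of which the pair at 32 and 27 bases overlap. The Mtr window held 2 CCAAT boxes, at 151 and 101 bases, and 1 GC box at 81. Among 21263 such windows of protein-coding genes, 35.4% held a CCAAT box, 11.4% held 2 or more of them and 3.36% held 3 or more. A GC box was present in 42.6% of windows, and 2 or more GC boxes in 22.8%. G and C made up 52.4% of the Mthfd2 window, 60% of the Shmt1 window and 62% of the Mtr window, against a median of 55.6% over all windows. The windows held 7, 13 and 20 CG dinucleotides in Mthfd2, Shmt1 and Mtr, and the median was 10. None of the 3 windows held a TATA box (TATAAA, present in 11.6% of windows), an E-box (CACGTG, present in 6.63%) or the ATF4 and C/EBP element (TGATGNAAT, present in 0.663%). The last was searched because Mthfd2 is a known target of ATF4, the factor of the amino acid stress response. None of the 3 windows overlaps the peak of its gene, so the sequence under the peaks was not searched. A match in these windows is a match of letters and no measured binding.

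The first question was what FA0 local background and what FA4 pileup the peak of each gene had. The 2 values are unlike measures, since the FA0 value is an estimate around the site and not a pileup at the summit. A peak is a place of difference, so its values do not give the H3K27ac of the whole gene or of its RefSeq start. Mthfd2 and Folr1 had tall peaks with FA0 signal well above the floor of the table, whereas Shmt1 and Mtr had low peaks on little FA0 signal. The floor, the lowest FA0 local background of any peak, was 1.60 fragments. It was shared, within 0.01, by 36.5% of all peaks, so a value at the floor is no count of FA0 fragments at that site. The median pileup of the 4 peaks was 30 and their median fold 3.47, beside 30 and 3.21 over all 1538 promoter peaks. This median fell between a tall pair and a low pair, so the peaks are given one by one.

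Mthfd2 had the tallest peak of the 4. It stood at 13.8 fragments of local background in FA0, against a pileup of 51 in FA4 (Poisson 95% interval 38.0 to 67.1). The FA0 value was 8.64 times the floor, so the FA0 library also had signal around this site, at a lower level. The fold, FA4 over FA0, was 3.50, and the −log10 q of the peak caller was 9.52, a value that 170 of the 1538 promoter peaks exceeded. Its fold was large for its height. Of the 146 promoter peaks with a pileup within 10% of 51, the median fold was 2.36, and 9 had a higher fold than Mthfd2. The peak was narrow at 268 bp, and 1338 promoter peaks were wider.

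Folr1 stood at 17.7 fragments in FA0, the highest FA0 background of the 4, against a pileup of 46 in FA4 (33.7 to 61.4). Its fold of 2.52 was the lowest of the 4, with a −log10 q of 4.13 and a width of 423 bp. Here the fold was near that of other peaks of its height, since the 122 promoter peaks with a pileup within 10% of 46 had a median fold of 2.41. The pileup intervals of Folr1 and Mthfd2 overlap, so their heights could not be told apart by counting error alone.

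Shmt1 stood at 2.50 fragments in FA0, against a pileup of 14 in FA4 (7.65 to 23.5). Its fold of 4.28 was the largest of the 4 and its −log10 q was 3.25. Low peaks need a large fold to be listed, and at a pileup within 10% of 14 the median fold of 143 promoter peaks was 4.45. At 855 bp the Shmt1 peak was the widest of the 4, and 47 of the 1538 promoter peaks were wider.

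Mtr stood at 1.62 fragments in FA0, 0.023 above the floor, against a pileup of 8 in FA4 (3.45 to 15.8). A pileup of 8 is the lowest in the table and was shared by 244 peaks. Its fold was 3.43, its −log10 q of 1.33 was exceeded by 1471 of the 1538 promoter peaks, and its width was 329 bp. No peak of the table had a −log10 q below 1.31. The Mtr pileup interval overlaps that of Shmt1 and lies below those of Folr1 and Mthfd2.

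**Figure D1:**
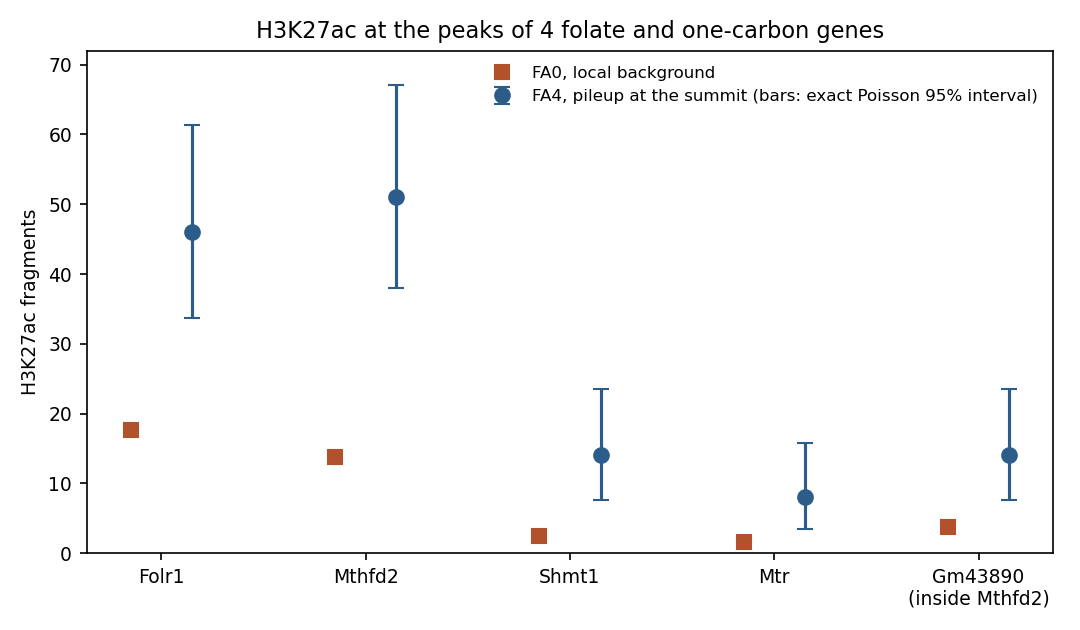
H3K27ac fragments (y axis) at the peaks of Folr1, Mthfd2, Shmt1 and Mtr and at the Gm43890 peak inside Mthfd2, with FA0 local background as squares and FA4 pileup as circles with exact Poisson 95% intervals (1 IP library each). FA0 and FA4 values ran from 1.62 against 8 fragments at Mtr to 17.7 against 46 at Folr1. Peaks were listed only where FA4 exceeded FA0, so FA0 lying below each FA4 interval is no separate result.

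**Figure D2:**
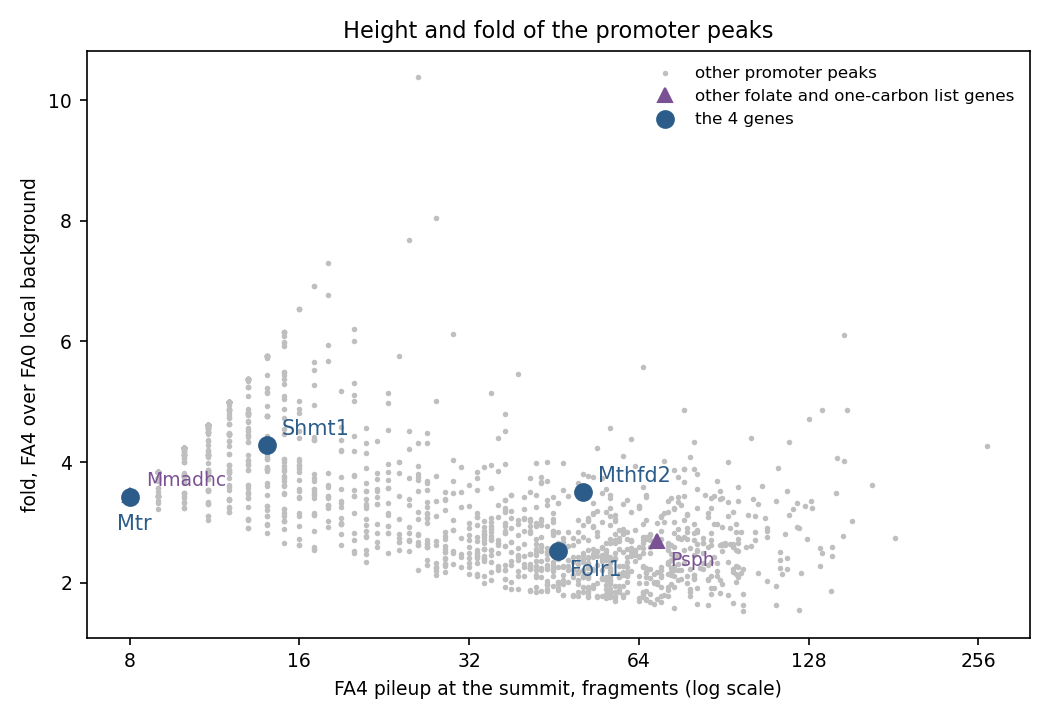
FA4 pileup (x axis, log scale) and fold, FA4 over FA0 local background (y axis), of the 1538 promoter peaks, with the 4 genes as circles and 2 other genes of the folate and one-carbon list as triangles. Mthfd2 lies near the top of the peaks of its height, Folr1 and Shmt1 lie among peaks of theirs, and Mtr, which covers the Mmadhc triangle, lies at the lowest pileup.

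The next question was where these peaks lie. The promoter class of the table is set by the nearest annotated transcript, and the distance it gives runs from the nearest edge of the peak, which held for all 4088 rows. Mthfd2 (ENSMUSG00000005667) had its peak at chromosome 6, 83317249 to 83317516 (mm10), with the summit 231 bp downstream of the transcript start in the table and 282 bp downstream of the RefSeq start. The RefSeq start is the single start given per gene with the promoter sequences, and the RefSeq gene of Mthfd2 extends beyond it, so that the summit lay 8.69 kb inside the upstream end of that gene. Folr1 (ENSMUSG00000001827) had its peak at chromosome 7, 101865861 to 101866283, in the class of 1 to 2 kb. Its summit lay 1223 bp downstream of the transcript start at 101867407 and 4.60 kb inside the upstream end of the RefSeq gene. With no RefSeq start for Folr1, its distance was measured only from that end and from the transcript.

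Shmt1 (ENSMUSG00000020534) had its peak at chromosome 11, 60796364 to 60797218. Its summit was 902 bp downstream of the start of a transcript at 60797853, but 14.3 kb downstream of the RefSeq start, inside a gene of 22369 bp. Mtr (ENSMUSG00000021311) had its peak at chromosome 13, 12202272 to 12202600. Its summit was 2043 bp upstream of a transcript that starts at 12200490, but 55.6 kb downstream of the RefSeq start, inside a gene of 76869 bp. The promoter class of the Shmt1 and Mtr peaks was therefore set by internal transcripts, and no peak was listed at the RefSeq start of either gene. Whether these transcripts have active promoters was not tested. Whether they fell in exons or introns was not analysed here.

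Among promoter peaks of protein-coding genes, 955 of 1181 had a RefSeq start for their gene, and 53.9% of these had the summit within 1 kb of it. Of the 3 genes with such a start, 1 (Mthfd2) did. The summit was over 10 kb away in 179 of the 955 peaks (18.7%), and the distance was at least that of Shmt1 in 150 and at least that of Mtr in 37. The peaks over 10 kb away had a median FA0 background of 2.29, a median FA4 pileup of 13 and a median fold of 3.84. Those within 1 kb had a median FA0 background of 20.8, a median FA4 pileup of 54 and a median fold of 2.65. The Shmt1 pileup of 14 and the Mtr pileup of 8 were nearer to the median of the distant peaks, and the Mthfd2 pileup of 51 was nearer to that of the peaks at RefSeq starts.

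**Figure D3:**
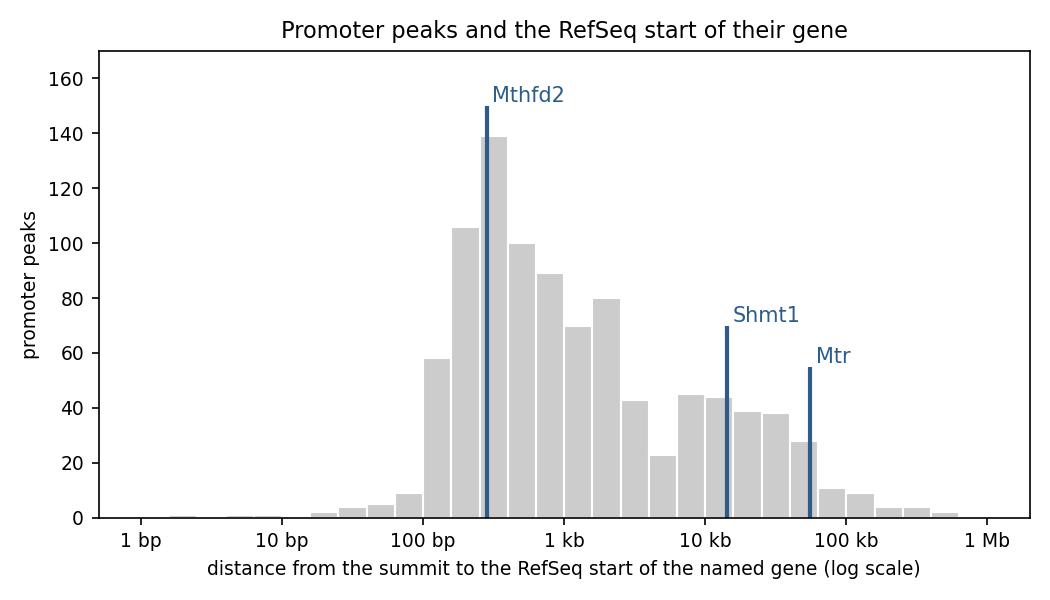
Number of promoter peaks (y axis) by the distance from the summit to the RefSeq start of the named gene (x axis, log scale), for the 955 peaks with such a start. Mthfd2 lies at 282 bp, within the main group, and Shmt1 at 14.3 kb and Mtr at 55.6 kb lie in a second group of distant peaks.

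Within its own class, Folr1 was tall and Shmt1 was low. Only 25 of the 277 peaks in the class of 1 to 2 kb had a higher pileup than Folr1, and that class had a median pileup of 13. In the class within 1 kb, 865 of 1065 peaks had a higher pileup than Shmt1 and 441 had a higher pileup than Mthfd2, with a median of 44. Mtr, in the class of 1 to 2 kb, had 261 peaks above it and 0 below.

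Peaks named for other genes were then sought around the 4 genes. A peak named for Gm43890, an unclassified transcript model, lay inside Mthfd2 at chromosome 6, 83315741 to 83316024, with its summit 1356 bp from that of the Mthfd2 peak. It stood at 3.82 fragments in FA0, against a pileup of 14 in FA4, with a fold of 3.11 and a −log10 q of 1.81. By position, then, 5 peaks lay over the 4 genes or in the 3 kb before them, with 2 of the 5 in Mthfd2. At Folr1, a peak of Inppl1, which encodes an inositol phosphatase, lay 32.9 kb away at 2.95 fragments in FA0, against 15 in FA4 (fold 4.05). Its promoter class came from a transcript whose start lay 710 bp from the summit. From the RefSeq start of Inppl1, the summit lay 12.6 kb downstream. At Mtr, a distal intergenic peak named for the pseudogene Gm47323 lay 49.5 kb from the transcript in the table at 2.39 fragments in FA0, against 15 in FA4 (fold 4.72).

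These were the 3 rows of other genes within 50 kb when distance was taken from the transcript in the table, and 5 rows were found from the RefSeq gene, an alternative chosen after seeing the data. The added rows were intronic peaks of Dhrs7b, 39.3 kb from Shmt1, and of Actn2, the muscle alpha-actinin gene, 25.6 kb from Mtr. Dhrs7b stood at 1.60 fragments in FA0, against 10 in FA4 (fold 4.23). Actn2 stood at 1.60 fragments in FA0, against 8 in FA4 (fold 3.46). All 5 neighbouring pileups were between 8 and 15, below those of Mthfd2 and Folr1. RefSeq placed 15 protein-coding genes within 50 kb of the 4 genes, and 3 of them (Inppl1, Dhrs7b and Actn2) had a row of any class, as did 9.28% of all protein-coding genes. With 15 genes, nothing is read from this count. Folr2, the folate receptor gene 1.14 kb from Folr1, had none. Mob1a, 0.023 kb from the upstream end of Mthfd2, and the DNA dioxygenase gene Tet3, 36.4 kb from Mthfd2, had none either.

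**Figure D4:**
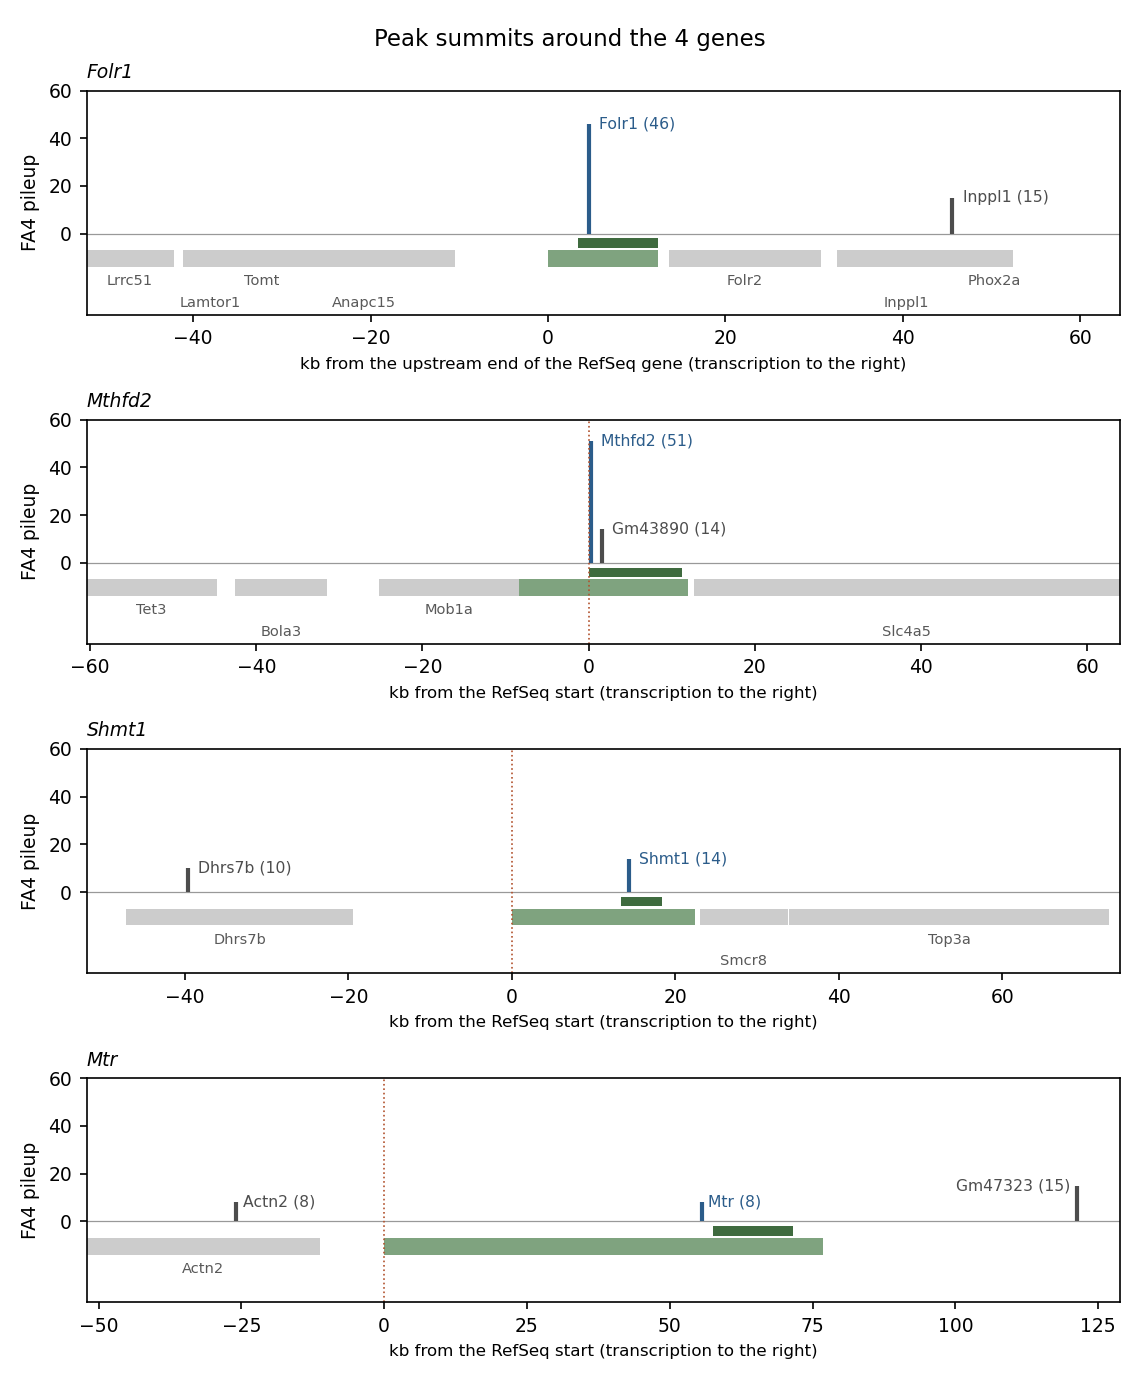
Positions around each of the 4 genes in kb (x axis, transcription to the right) with FA4 pileup of each peak as the height of a line (y axis, fragments). Light green bars are the RefSeq gene, dark green bars the transcript in the table, gray bars other protein-coding genes and dotted lines the RefSeq start. The Mthfd2 peak stands beside the dotted line, and the Shmt1 and Mtr peaks stand 14.3 kb and 55.6 kb inside their genes.

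Other genes of the pathway were then counted in a list of 45 folate and one-carbon genes. A promoter peak was listed for 6 of the 45 (13.3%; exact binomial 95% limits 5.05% and 26.8%), and 4.75% of all 21900 protein-coding genes had one. The 4 genes described here are among the 6 and were taken up because they had such a peak, so nothing is read from this share. Of the 41 others, 2 had a promoter peak. A peak of any class was listed for 11 of 45 (24.4%), the 4 genes among them again, so nothing is read from this share either. Without the 4, it was 7 of 41, beside 9.28% of all protein-coding genes. The list too was chosen with earlier results of these data known, so nothing is read from the counts of the 41 others.

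By step of the pathway, 1 of 5 uptake genes had a peak of any class (Folr1). Of the genes that keep folate in the cell (Fpgs and Ggh), 0 of 2 had one. In the cytosol it was 2 of 10, with Mthfs beside Shmt1, and in the mitochondria 2 of 11, with Gldc beside Mthfd2. Of the methionine cycle, 3 of 10 genes had one, with Bhmt2 and Mat2a beside Mtr. Serine synthesis had 2 of 3, Psph and Psat1, and the supply of cobalamin, the cofactor of methionine synthase, had 1 of 4, Mmadhc. Over all protein-coding genes the share was 9.28%. The counts for uptake, cytosol, mitochondria and the methionine cycle each include 1 of the 4 genes. Each step holds few genes, so nothing is read from these counts. Some list genes next to the 4 in the pathway had no row, among them Slc19a1, the reduced folate carrier, Shmt2 and Mthfd1l of the mitochondria, and Tyms and Mthfd1 of the cytosol. The lack of a row says only that FA4 did not exceed FA0 past the peak caller's threshold under that symbol.

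Psph, which encodes the last enzyme of serine synthesis, was the tallest of the list. It stood at 25.1 fragments in FA0, against a pileup of 69 in FA4 (53.7 to 87.3), with a fold of 2.69 and a −log10 q of 8.07. Its summit was 398 bp from the RefSeq start, on the upstream side, and its width was 955 bp. Psph and Mthfd2 were the list's only peaks with the summit within 1 kb of the RefSeq start, of 9 that had one. Mmadhc, a gene of cobalamin processing, stood at 1.60 fragments in FA0, against 8 in FA4 (fold 3.46), 1501 bp downstream of its transcript start.

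The 5 list peaks outside promoters were all low. Mthfs and Bhmt2 had intronic peaks with pileups of 8 and 9 in FA4, each over 1.60 fragments in FA0. Mat2a, which makes S-adenosylmethionine, had a distal peak 8596 bp before its start. The distal peak of Psat1 lay 45715 bp downstream of its transcript start, outside the gene and past its downstream end. The Mat2a and Psat1 peaks both stood at 1.60 fragments in FA0, against 11 in FA4 (fold 4.61). Gldc, of the glycine cleavage system, had a distal peak 10896 bp before its start, with 2.39 fragments in FA0, against 10 in FA4 (fold 3.25). In the list, 3 peaks (Psph, Mthfd2 and Folr1) reached a pileup of 46 and the other 8 ran from 8 to 14. Among the 11 peaks, 5 stood at the floor of FA0 background, within 0.01, as did 36.5% of all peaks. At such a peak the fold is fixed by the pileup alone.

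The genes with promoter peaks nearest in height and fold were taken as the most similar, over the single comparison available. For Mthfd2 these were BC003965 (pileup 50, fold 3.66) and Mtrex (48, 3.44), and for Folr1 they were Cherp (46, 2.49) and Ak6 (46, 2.55). For Shmt1 they were Golga4 (14, 4.33) and Ctr9 (14, 4.18). For Mtr, 17 genes (pileup 8, fold 3.46) were equally near, one of them Mmadhc of the same pathway. Likeness here is of a pair of numbers per peak and carries no statement on function.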

How the data were processed

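Chromatin was digested with enzyme and precipitated with an anti-H3K27ac antibody. The submitters' processing notes name bcl2fastq 2.17, Bowtie 1.1.2, MACS2 2.1.0 and mm10. For the aligner and caller settings and the annotation, no tool or value is given in the sources used here. The authors deposited 2 peak tables, of 4088 peaks and of its 1538 promoter peaks, called on single libraries. The pileup signal was deposited unscaled. The −log10 p-value, the −log10 q-value and the fold ratio were deposited as the peak caller gave them. Widths and distances, in bp, were deposited too.

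FA0 background was computed as pileup plus 1, over fold, minus 1. An upper Poisson tail from it matched the deposited −log10 p within 0.01 at 100% of peaks (0% with no pseudocount). It is an estimate, not the FA0 pileup at the summit, and at the floor it is a lowest value shared by many peaks. Gene symbols were matched to RefSeq (GRCm38.p6), 2022 of 2044 protein-coding symbols. Intervals are exact, at 95%. Named genes were the 4 genes, neighbours within 50 kb, list genes with a row and, for each of the 4 genes, the 2 nearest in height and fold. The members and gene lists were chosen with earlier results of these data known. Alternatives were −log10 q of at least 2 and 3, promoters within 1 kb, any class, a fold of at least 3, position in place of symbol and class, other distance limits, 1 peak per gene and no pseudocount. Interval, distance and motif code was tested on simulated data. The input libraries were not used here. Computation used scipy 1.17.1, numpy 2.4.6 and pandas 2.3.3 in Python 3.11.15, and plots matplotlib 3.10.9.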

Additional observations from a re-analysis of the deposited data

How the results depend on the processing

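Of the 4 peaks, 3 were left with −log10 q of at least 2 or 3, where Mtr was lost, and 3 with a fold of at least 3, where Folr1 was lost. The 6 list genes with a promoter peak became 3 with promoters within 1 kb and 11 with peaks of any class. They became 8 with peaks of any symbol and any class over the gene or in the 3 kb before it. Mthfs and Bhmt2, with intronic peaks, are the added genes there. Each stricter threshold left 4, but not the same genes. Both −log10 q limits kept Folr1, Shmt1, Mthfd2 and Psph, and the fold limit kept Shmt1, Mthfd2, Mtr and Mmadhc. The 3 neighbouring rows became 1 at 25 kb, 6 at 100 kb, 5 from the RefSeq gene, 2 from the summit and 2 at the stricter −log10 q of 3. At that limit the median pileup of the remaining genes was 46 (30 without it) and the median fold 3.50 (3.47 without it). With no pseudocount the FA0 background was 18.3 at Folr1, 14.6 at Mthfd2, 3.27 at Shmt1 and 2.33 at Mtr, values from which the deposited p-values were not recovered. Taking 1 peak per gene could change nothing, since each of the 4 genes has 1 row. No paired analysis was possible because FA0 and FA4 had a single IP library each, which also leaves no replicate to drop. Depth limits the low peaks most, since 8 fragments have Poisson limits of 3.45 and 15.8. A difference in IP efficiency between the 2 IP libraries cannot be told apart from a difference between the conditions.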
